A study of Mus musculus with 6 samples.

Results

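The uptake of long-chain fatty acids and their transfer into mitochondria were followed through 10 genes in C2C12 cells, a mouse myoblast line that fuses into multinucleated myotubes. The 10 genes were taken by symbol from a table of 27179 genes: the lipase Lpl, the membrane proteins Cd36 and Slc27a1, the binding proteins Fabp3, Fabp4 and Fabp5, and the carnitine palmitoyltransferases Cpt1a, Cpt1b, Cpt1c and Cpt2. Each of 2 groups held 3 libraries. Myoblasts were kept below confluence in high glucose medium with 10% fetal bovine serum. Myotubes came from the same line, held for 3 days at 100% confluence and then for 5 days in high glucose medium with 2% horse serum and an insulin, transferrin, selenium and ethanolamine supplement. Both media contained 4 mM glutamine. Serum source and amount, the supplement, cell density and differentiation therefore differ together and cannot be told apart. The labels record harvests in triplicate without naming separate cultures, so the p-values rest on differences among these libraries alone, which may be technical.

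Lipoprotein lipase frees fatty acids from circulating triglyceride. Cd36 and the transport protein encoded by Slc27a1 help them across the plasma membrane, small binding proteins carry them in the cytosol, and acyl-CoA synthetases activate them. Carnitine palmitoyltransferase 1 of the outer mitochondrial membrane, which malonyl-CoA inhibits, makes acyl-carnitine, a carrier moves it inwards, and carnitine palmitoyltransferase 2 of the inner membrane makes acyl-CoA again. Skeletal and heart muscle are known for Cd36, Fabp3 and the muscle isoform Cpt1b.

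Library totals were 10076945 to 11723881 counts in myoblasts and 7370169 to 8339589 in myotubes. The labelled states were checked with marker genes. The summed level of 10 muscle genes was 1514 to 1596 CPM (counts divided by the TMM-scaled library size in units of 1e6) in myoblasts and 15303 to 15905 CPM in myotubes, with Acta1 the highest; 8 rose, while Myod1 and Myf5, named after their values were seen, fell by 0.16 and 0.13 on the log2 scale. That of 6 cell cycle genes, with Top2a the highest, was 1717 to 1738 and 148 to 158 CPM, and all 6 fell. Cd36 and Fabp4 are also genes of fat cells, endothelial cells and macrophages, and Lpl is also a gene of fat cells and macrophages. None of 9 adipocyte markers had enough counts to be tested. Their sum reached at most 0.0899 CPM in the myoblast and 0.714 CPM in the myotube libraries. Adipoq, Retn, Cfd, Pck1 and Cidea were at 0 in all libraries. Cidec, the highest, and Lep were at 0 in myoblasts but not in myotubes. Plin1 was at 0 in myotubes but not in myoblasts. The 8 endothelial markers summed to 0.565 to 0.809 CPM in myoblasts and 4.55 to 6.71 CPM in myotubes. Vwf was the highest, Tie1 and Gpihbp1 were at 0 in all libraries and Pecam1 was at 0 in myoblasts. Only 1 of the 8 was tested, through its counts in myotubes alone, and it rose by 5.75 on the log2 scale. The 7 macrophage markers summed to 2.26 to 3.23 and 4.28 to 4.87 CPM, with Itgam the highest and Adgre1 at 0 in all libraries. Of these markers 2 were tested, and 1 rose and 1 was not called. Of the 6 fibroblast markers, 4 were tested: Ly6a, the highest, and Dcn, the gene of the matrix proteoglycan decorin, rose, and Pdgfra and Pdgfrb fell (the last 3 named after their values were seen). Thy1 and Dpp4 were at 0 in myoblasts but not in myotubes. The sum of the 6 was 429 to 455 CPM in myoblasts and 613 to 687 CPM in myotubes. The part of other cell types in the results below was not tested.

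Enough counts for a test were present for 8 of the 10 genes. Cd36 and Fabp3 passed this filter through the myotube libraries alone, so they could only be tested because they were high there. Among these, 4 rose in myotubes (Cd36, Fabp3, Cpt2 and Lpl) and 4 fell (Cpt1a, Slc27a1, Fabp5 and Cpt1c) (edgeR quasi-likelihood test, p-values adjusted by Benjamini-Hochberg over 12800 genes). Of all genes tested 79.5% were called, 40.2% higher and 39.2% lower, so a call by itself sets no gene apart. This even split depends on the scaling: with library totals 4269 genes were higher and 5935 lower. The median log2 change of the 8 genes was −0.05, against 0.02 over all genes tested. For 7 of the 8 there was no overlap between groups, with 3 higher and 4 lower in myotubes; Lpl was the exception. The same held for 80.5% of all genes tested, 40.6% higher and 39.9% lower. In bulk RNA, fewer cells of a type and less RNA per cell cannot be told apart. The plot of levels by library shows all 10 genes.

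**Figure D1:**
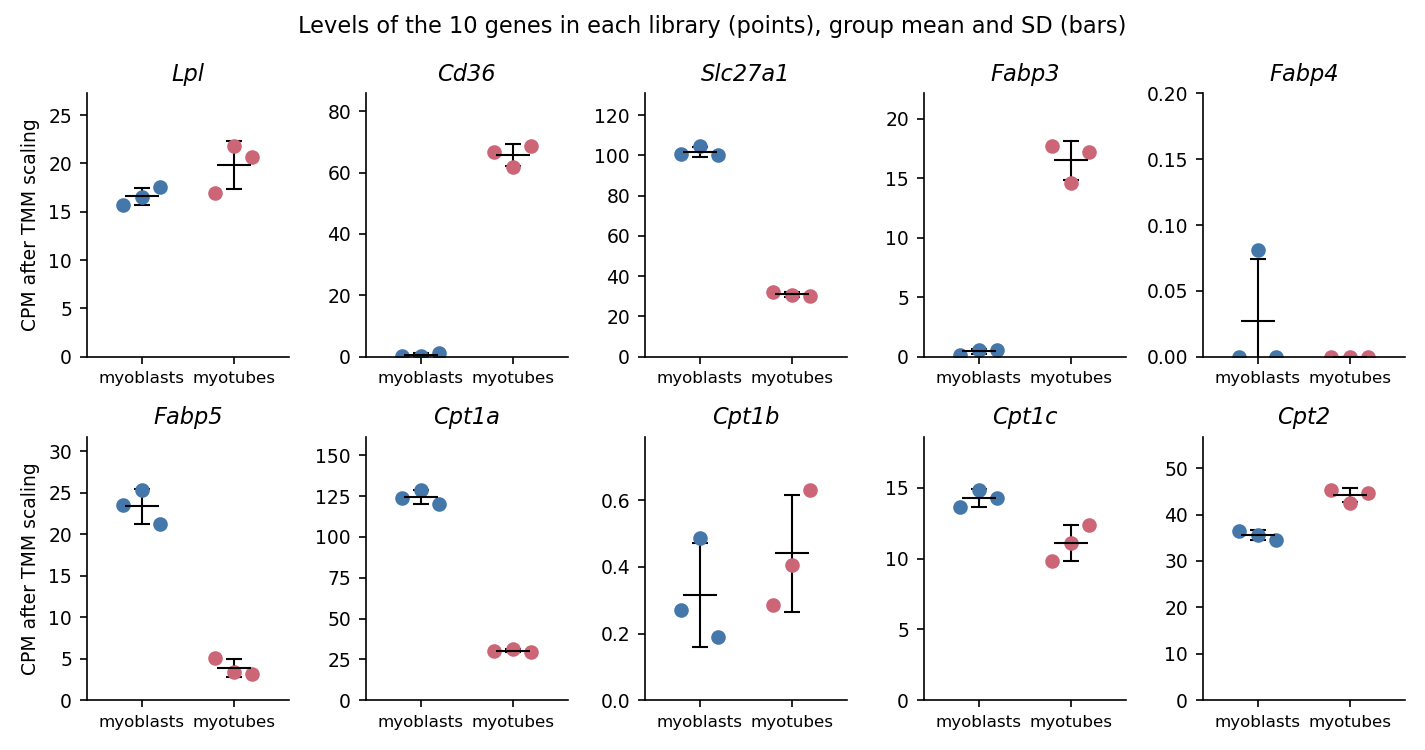
Level of each gene in CPM after TMM scaling (y axis, linear, one scale per panel) in 3 myoblast and 3 myotube libraries; points are libraries, the long bar is the group mean and the whisker the SD. Cd36 lies between 0.325 and 1.13 CPM in myoblasts and between 61.7 and 68.6 CPM in myotubes, Cpt1a between 120 and 129 and between 29.6 and 31.3 CPM, and Fabp4 has 1 count in 1 library.

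Lpl encodes the secreted lipase itself, on chromosome 8 at 68880555 to 68906932 (Entrez gene 16956; this and later coordinates are from GRCm38). Its level was 15.7, 16.5 and 17.5 CPM in myoblast libraries 1, 2 and 3 and 17.0, 21.8 and 20.7 CPM in myotube libraries 1, 2 and 3. Myotube library 1 lay inside the myoblast range, so the groups overlapped. The rise was 1.20-fold, with means of 16.6 ± 0.901 and 19.8 ± 2.52 CPM (here and below ± is the SD of n = 3 libraries). The log2 change was 0.26 with an SE of 0.11 (edgeR adjusted p = 0.0255). The call did not hold with library totals in place of TMM (log2 change 0.12, adjusted p = 0.312) and was lost in 7 of 13 alternatives, with adjusted p from 0.00395 to 0.312. Leaving out 1 library ended it for myoblast library 1 (adjusted p = 0.0930), myoblast library 2 (0.0595), myotube library 2 (0.147) and myotube library 3 (0.0764).

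Of 17 genes that handle lipoprotein lipase or take up its lipoprotein remnants, 10 were tested, and 4 rose and 5 fell. Beside this and each later list stand all genes tested, of which 40.2% were called higher and 39.2% lower. Vldlr, the very low density lipoprotein receptor that binds triglyceride-rich particles beside the lipase, rose, with 12.3 ± 1.61 CPM in myoblasts and 149 ± 8.70 CPM in myotubes (edgeR log2 change 3.60, SE 0.07, adjusted p = 9.38e-24). The proprotein convertase gene Pcsk6 rose by 1.53 on the log2 scale. Angptl4, a secreted inhibitor of the lipase, had 40.2, 40.2 and 35.1 CPM in the myoblast libraries and 6.28, 6.63 and 5.94 CPM in the myotube libraries. It fell by 2.62 on the log2 scale (SE 0.11, adjusted p = 4.15e-17), and the groups lay far apart. Lmf2, a relative of the lipase maturation factor, fell by 1.12. The endothelial anchor of the lipase, Gpihbp1, an endothelial marker above, had 0 counts in all libraries.

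Cd36 encodes the fatty acid translocase, a scavenger receptor of the plasma membrane, on chromosome 5 at 17781690 to 17888959 (Entrez gene 12491). It had 4, 4 and 12 counts in the myoblast libraries and 468, 456 and 543 counts in the myotube libraries. These correspond to 0.359, 0.325 and 1.13 CPM in myoblasts and 66.8, 61.7 and 68.6 CPM in myotubes. All 3 myotube libraries were far above all 3 myoblast libraries. Cd36 passed the filter on low counts through the myotubes alone, so a difference in this direction was largely set beforehand. The p-value and rank below add no support to it. The means of 0.605 ± 0.455 and 65.7 ± 3.56 CPM made a 109-fold rise (edgeR log2 change 6.77, SE 0.16, adjusted p = 2.37e-22), and 98.1% of the genes tested had a lower log2 change. With 20 counts in the myoblast group this SE is too small: the ratio of summed counts, scaled by library size, was 112 with an exact 95% counting interval of 72.2 to 184.

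Slc27a1 encodes a fatty acid transport protein of insulin-responsive tissues that also activates very long chain fatty acids, on chromosome 8 at 71568728 to 71587307 (Entrez gene 26457). It had 101, 105 and 100.1 CPM in the myoblast libraries and 32.3, 30.9 and 29.9 CPM in the myotube libraries. The groups did not overlap, and each varied little. Slc27a1 fell to 30.5% of its myoblast level (log2 change −1.72, SE 0.06, adjusted p = 8.42e-19). Per kilobase of transcript, the level of Cd36 rose from 0.178 ± 0.134 to 19.3 ± 1.05 CPM per kb while that of Slc27a1 fell from 36.4 ± 0.880 to 11.1 ± 0.417 CPM per kb. Cd36 thus made up 0.293, 0.255 and 0.920% of the pair in the myoblast libraries and 63.0, 62.2 and 65.3% in the myotube libraries. The summed level of the pair was 36.6 ± 0.805 CPM per kb in myoblasts and 30.4 ± 1.07 CPM per kb in myotubes.

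**Figure D2:**
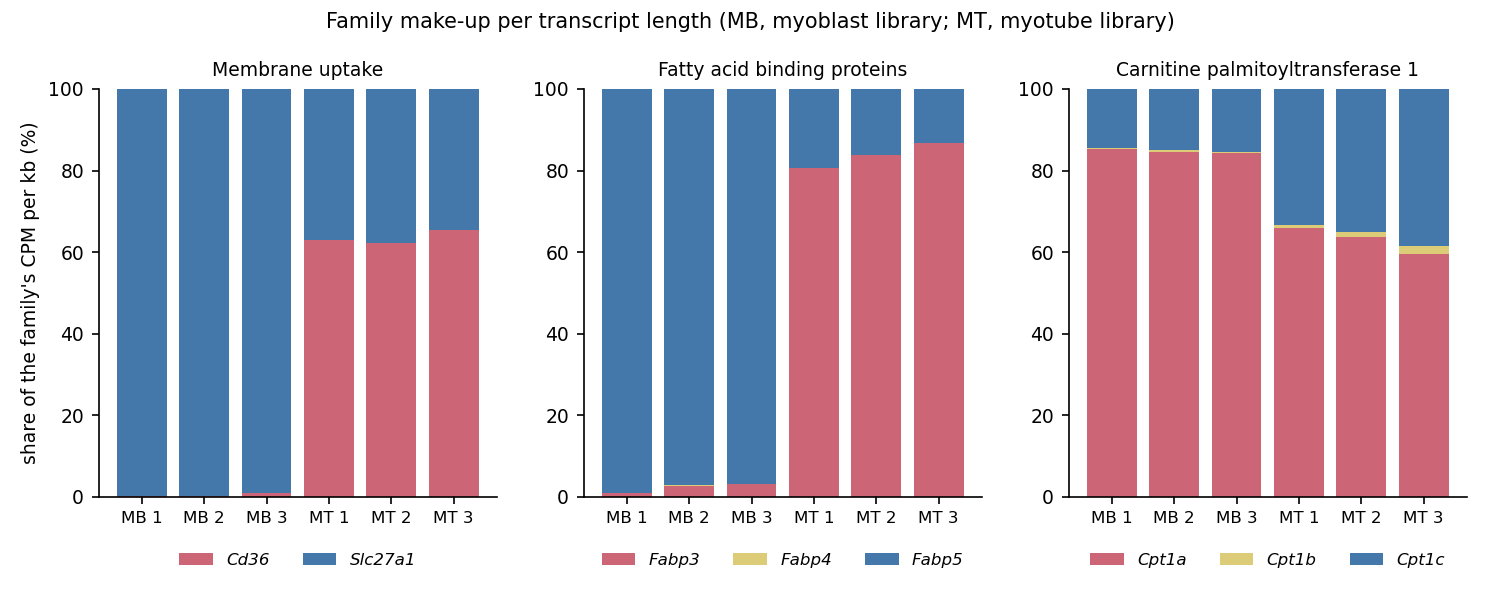
Share of each gene in the summed CPM per kilobase of transcript of its family (y axis, percent, stacked to 100) in each myoblast (MB) and myotube (MT) library. Cd36 goes from under 1% to between 62.2 and 65.3% of the membrane pair, Fabp3 from at most 3.10% to between 80.5 and 86.7% of the binding proteins, and Cpt1c from about 15% to between 33.3 and 38.5% of the Cpt1 genes, among which the level of Cpt1b is uncertain.

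Of 19 other transport and binding genes, 9 were tested, and 4 rose and 3 fell; with library totals 4 rose and 5 fell. Cav1, the caveolar coat protein, rose by 1.32 on the log2 scale and the acyl-CoA binding protein gene Dbi by 1.03, from 133 ± 2.90 to 271 ± 8.66 CPM. Mfsd2a, a transporter of lysophospholipid-bound fatty acids, fell by 1.03 and Slc27a3, another member of the transport protein family, by 0.88.

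The binding proteins exchanged places. Fabp3, the heart and muscle form, lies on chromosome 4 at 130308738 to 130315463 (Entrez gene 14077). It had 2, 7 and 6 counts in the myoblast libraries and 124, 108 and 136 counts in the myotube libraries, or 0.180, 0.569 and 0.565 CPM against 17.7, 14.6 and 17.2 CPM. Every myotube library was above every myoblast library. Fabp3 also passed the filter through the myotubes alone, so this direction was largely set beforehand and the p-value adds no support to it. Fabp3 rose 37.7-fold (log2 change 5.18, SE 0.24, adjusted p = 1.86e-16). With 15 counts in the myoblast group this SE is too small: the scaled ratio of summed counts was 37.4, with an exact 95% counting interval of 22.4 to 67.6. Its transcript shares 29.2% of its 50-base windows with the pseudogene Fabp3-ps1, and 9.72 and 9.84% of its bases lie opposite exons of Gm10570 and Zcchc17, so its level is uncertain to that extent.

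Fabp5, the epidermal form, lies on chromosome 3 at 10012585 to 10016610 (Entrez gene 16592). It had 23.5, 25.4 and 21.2 CPM in the myoblast libraries and 5.14, 3.38 and 3.16 CPM in the myotube libraries. The groups did not overlap, and myotube library 1 was the highest of its group. Fabp5 fell to 16.7% of its myoblast level (log2 change −2.60, SE 0.15, adjusted p = 2.73e-14). Exact copies in pseudogenes covered 21.1% of its 50-base windows, mostly in Gm6166. Fabp4, the fat cell form, also on chromosome 3 (10204342 to 10208616, Entrez gene 11770), had 1 count in myoblast library 2 and 0 in the other libraries. Both groups are under the level of 3 counts per group, 0.0881 CPM in myoblasts and 0.134 CPM in myotubes, so no fold is given.

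As log2 ratios of CPM + 1, Fabp3 over Fabp5 was −4.38, −4.07 and −3.83 in the myoblast libraries and 1.61, 1.83 and 2.13 in the myotube libraries. The sign of the ratio differed between the groups in every library. The difference was 5.95, with an exact two-sided permutation p = 0.1, the smallest that 3 against 3 libraries allow, and p = 0.1 after adjustment over 3 such ratios. Fabp3 lay under the offset of 1 CPM in every myoblast library, so the size of this difference depends on the offset (7.20 with 0.25 CPM). Fabp4 over Fabp5 differed by 2.30 (exact permutation p = 0.1, adjusted p = 0.1), a value that the change of Fabp5 alone sets. Per kilobase the summed level of the binding proteins was 24.2 ± 2.16 in myoblasts and 24.0 ± 2.76 CPM per kb in myotubes. The windows that Fabp3 and Fabp5 share with pseudogenes leave both sums uncertain. Of the other binding protein genes, Fabp1, Fabp2, Fabp6, Fabp9 and Fabp12 had 0 counts in all libraries and Fabp7 had 4 counts, all in myoblasts; they were named after their values were seen.

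**Figure D3:**
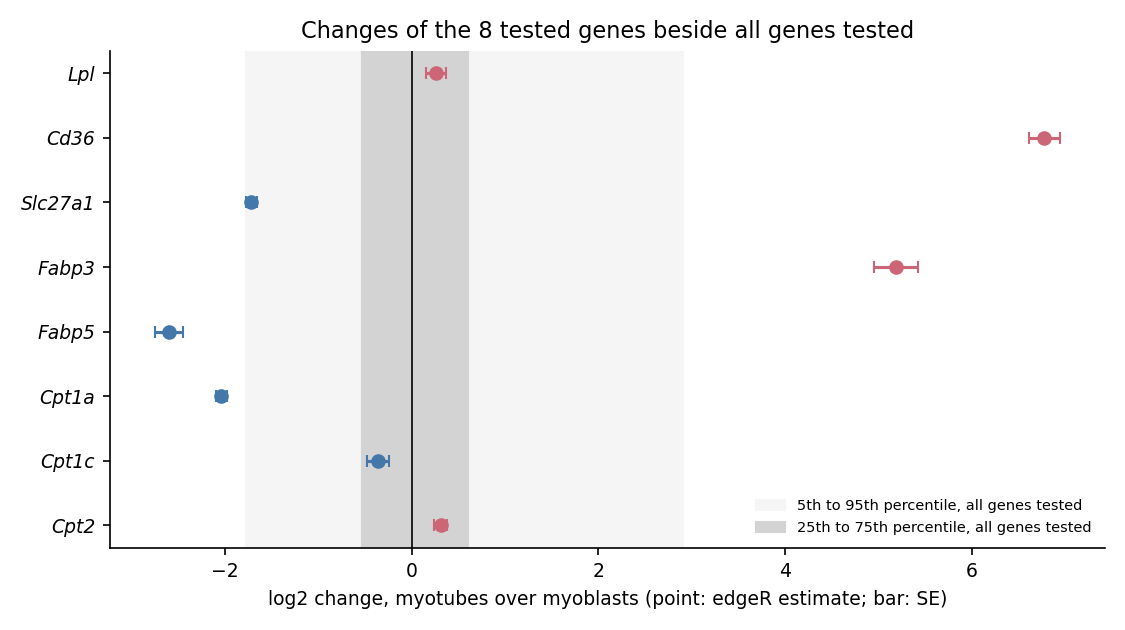
Log2 change of myotubes over myoblasts (x axis) for the 8 tested genes; points are edgeR estimates and bars their SE, and the grey bands hold the central part of all 12800 genes tested. Cd36 and Fabp3 lie above the 95th percentile (2.91), Fabp5 and Cpt1a below the 5th (−1.77), and Slc27a1 (−1.72) just inside it.

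Once inside, fatty acids are activated to acyl-CoA. Of 11 acyl-CoA synthetase and thioesterase genes, 10 were tested, and 6 rose and 4 fell. Acsl6, a long-chain synthetase, had 1.89, 1.79 and 1.79 CPM in the myoblast libraries and 56.5, 51.0 and 54.1 CPM in the myotube libraries (log2 change 4.88, SE 0.12, adjusted p = 3.82e-22). At so low a level in myoblasts this SE is too small, as for Cd36 and Fabp3. The mitochondrial thioesterase gene Acot2 rose by 3.25 on the log2 scale, but it shares 24.5% of its windows with Acot1 and is uncertain to that extent. Acsbg1, a synthetase of the bubblegum family, fell by 2.25 and the cytosolic thioesterase gene Acot7 by 2.01, from 221 ± 5.35 to 54.9 ± 0.644 CPM.

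Cpt1a encodes the liver form of carnitine palmitoyltransferase 1, which is also made in many proliferating cells, on chromosome 19 at 3322326 to 3385735 (Entrez gene 12894). It had 124, 129 and 120 CPM in the myoblast libraries and 30.1, 31.3 and 29.6 CPM in the myotube libraries. The groups lay far apart, and each was tight. Cpt1a fell to 24.3% of its myoblast level (log2 change −2.04, SE 0.06, adjusted p = 1.53e-20), and 3.89% of the genes tested had a lower log2 change. By root mean square distance of centred log2(CPM + 1) over the 6 libraries, the nearest of the 12800 genes were Cenps (0.0333), Gclm (0.0375) and Arhgap31 (0.0389). Their edgeR log2 changes were −2.52, −2.12 and −2.05. Cenps, with means of 11.4 CPM in myoblasts and 1.97 CPM in myotubes, thus fell more than Cpt1a. Adding 1 narrows the change of a gene this low.

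Promoter windows were at hand for 6 of the 10 genes, from RefSeq (GRCm38.p6). The 2 shown belong to the gene with the largest rise and to the carnitine palmitoyltransferase with the largest fall. They run up to the start of one annotated transcript, Cd36 at chr5:17835897-17836146 (minus strand) and Cpt1a at chr19:3323051-3323284 (plus strand, ending before bases annotated as exon). Both windows lie inside the annotated span of their gene, downstream of its outermost start, and do not show the bases before that start. Capitals mark matches on either strand to CAGCTG or CAGGTG (E-boxes of the kind myogenic factors bind), AGGTCA (a nuclear receptor half-site) and GGGCGG (a GC box); no 2 of the marked matches overlap.
Cd36: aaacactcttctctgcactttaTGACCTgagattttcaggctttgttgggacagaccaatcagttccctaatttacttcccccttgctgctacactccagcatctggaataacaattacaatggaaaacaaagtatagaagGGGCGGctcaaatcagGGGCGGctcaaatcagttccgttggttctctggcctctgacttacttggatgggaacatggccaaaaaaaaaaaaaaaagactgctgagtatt
Cpt1a: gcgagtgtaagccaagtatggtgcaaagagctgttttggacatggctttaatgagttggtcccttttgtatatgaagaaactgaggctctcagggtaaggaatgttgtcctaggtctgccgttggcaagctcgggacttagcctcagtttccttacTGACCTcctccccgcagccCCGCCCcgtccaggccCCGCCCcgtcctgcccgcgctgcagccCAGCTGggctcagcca
Cd36 held 1 AGGTCA and 2 GGGCGG matches, and Cpt1a the same plus 1 CAGCTG. Among 32851 such windows of 250 bases, 14.0% held AGGTCA, 32.7% GGGCGG, 13.0% CAGCTG and 17.2% CAGGTG. The full PPAR element AGGTCANAGGTCA (0.0335% of windows), TATAAA (12.4%) and the MEF2 site (1.69%) were not found in either window. A match is a description of these letters and not a site of binding.

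Cpt1b, the muscle form, is known as the main isoform of adult muscle and had almost no counts in this table. It had 3, 6 and 2 counts in the myoblast libraries and 2, 3 and 5 counts in the myotube libraries, too few for the test. The sums were 11 and 10 counts, a ratio of 1.39 after scaling by library size, with an exact 95% counting interval of 0.528 to 3.60. Cpt1b (chromosome 15, 89416405 to 89425862, Entrez gene 12895) lies inside the annotated read-through gene Gm44502, which joins Chkb, the choline kinase gene upstream, to Cpt1b on the same strand. Of the 2895 bases of the Cpt1b transcript, 2744 (94.8%) are also exons of Gm44502, which leaves 151 bases of its own. Gm44502 is itself a row of the table and had 1 count over the 6 libraries. Chkb, of whose transcript 81.0% is shared with it, had 105. The sources used here do not give how reads in exons of 2 genes were assigned, and the part of this overlap in the low count was not tested. The level of Cpt1b is therefore uncertain. Divided by the 151 unshared bases alone, its counts give 1.79, 3.23 and 1.25 CPM per kb in the myoblast libraries and 1.89, 2.69 and 4.18 CPM per kb in the myotube libraries, far above the values by whole transcript.

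**Figure D4:**
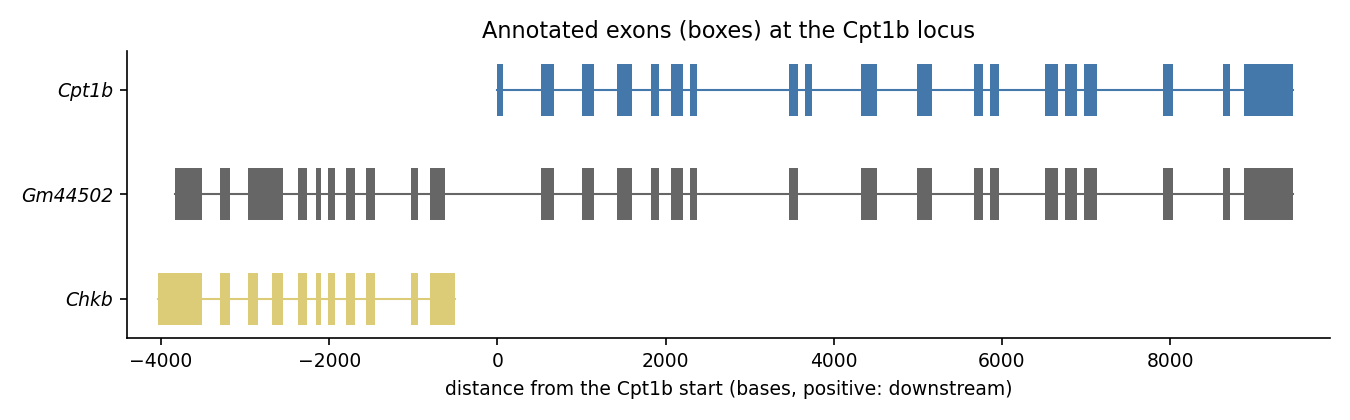
Exons (boxes) of Cpt1b, the read-through gene Gm44502 and Chkb, drawn to scale by distance in bases from the Cpt1b start (x axis, positive downstream). Apart from 2 Cpt1b exons, the boxes of Cpt1b are repeated in Gm44502, 2744 of 2895 transcript bases in all.

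The first 60 coding bases of the Cpt1 genes, from GENCODE transcripts, show what a read can separate. Capitals mark the start codon.
Cpt1a: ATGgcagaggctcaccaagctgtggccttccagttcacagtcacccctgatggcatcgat
Cpt1b: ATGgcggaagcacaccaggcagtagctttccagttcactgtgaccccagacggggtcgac
Cpt1c: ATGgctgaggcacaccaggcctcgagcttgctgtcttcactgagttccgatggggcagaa
The Cpt1b stretch occurs unchanged in the Gm44502 transcript, whereas those of Cpt1a and Cpt1c do not. In all, 93.0% of the 50-base windows of Cpt1b have an exact copy in Gm44502, against 0% for Cpt1a with any other gene. The log2 ratio of CPM + 1 of Cpt1b over Cpt1a was −6.62, −6.45 and −6.67 in the myoblast libraries and −4.60, −4.52 and −4.23 in the myotube libraries. The difference of 2.13 (exact two-sided permutation p = 0.1, adjusted p = 0.1) comes with a fall of Cpt1a and with too few Cpt1b counts to be read as a change of isoform.

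Cpt1c, the isoform known from neurons and from the endoplasmic reticulum, lies on chromosome 7 at 44958483 to 44974880 (Entrez gene 78070). It had 13.7, 14.9 and 14.3 CPM in the myoblast libraries and 9.85, 11.1 and 12.4 CPM in the myotube libraries. The groups did not overlap but came close. Cpt1c fell to 77.8% of its myoblast level (log2 change −0.36, SE 0.12, adjusted p = 0.00815), and without myotube library 1 the call was lost (log2 change −0.28, adjusted p = 0.0524; range over 13 alternatives 0.000419 to 0.0524). Opposite 13.1% of its transcript lies the antisense gene 6530437J22Rik, so its level is uncertain to that extent. Per kilobase, Cpt1c made up 14.5, 15.1 and 15.5% of the counted Cpt1 genes in the myoblast libraries and 33.3, 35.0 and 38.5% in the myotube libraries, while their counted sum went from 34.1 ± 1.19 to 11.2 ± 0.483 CPM per kb. The uncertainty of Cpt1b touches both the share and the sum.

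Cpt2 encodes the single inner membrane enzyme, on chromosome 4 at 107903982 to 107923589 (Entrez gene 12896). It had 36.6, 35.6 and 34.5 CPM in the myoblast libraries and 45.4, 42.5 and 44.6 CPM in the myotube libraries. All myotube libraries were above all myoblast libraries, by a small margin. Cpt2 rose 1.24-fold (log2 change 0.31, SE 0.07, adjusted p = 0.000167); 64.8% of the genes tested had a lower log2 change.

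Per kilobase of transcript, the 10 genes stood in another order in each state. In myoblasts Slc27a1 (36.4 ± 0.880 CPM per kb) was highest, then Cpt1a (28.8 ± 1.002), Fabp5 (23.7 ± 2.12), Cpt2 (14.99 ± 0.442), Cpt1c (5.11 ± 0.218), Lpl (4.03 ± 0.219), Fabp3 (0.532 ± 0.272), Cd36 (0.178 ± 0.134), Cpt1b (0.109 ± 0.0535) and Fabp4. Each neighbouring pair from Fabp3 down (Fabp3 and Cd36, Cd36 and Cpt1b, Cpt1b and Fabp4) overlapped between libraries. In myotubes Fabp3 (20.0 ± 2.00), Cd36 (19.3 ± 1.05) and Cpt2 (18.6 ± 0.628) led and did not differ beyond their spread, followed by Slc27a1 (11.1 ± 0.417), Cpt1a (7.02 ± 0.202), Lpl (4.82 ± 0.613), Cpt1c (3.98 ± 0.453), Fabp5 (3.94 ± 1.10) and Cpt1b (0.152 ± 0.0607). The place of Cpt1b is by its whole transcript; by its unshared bases it would stand above Fabp3 and Cd36 in every myoblast library. The neighbours Lpl, Cpt1c and Fabp5 also lay within their spread in myotubes. The SD does not cover the uncertainty from the windows that Fabp3 and Fabp5 share with pseudogenes.

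Around the transferases, carnitine supply and exchange had 8 tested genes of 11, of which 4 rose and 2 fell. Slc25a20, the carnitine and acyl-carnitine carrier of the inner membrane, had 21.3, 20.7 and 23.5 CPM in the myoblast libraries and 29.4, 30.3 and 31.5 CPM in the myotube libraries (log2 change 0.48, SE 0.08, adjusted p = 1.25e-05). Slc22a5, the plasma membrane carnitine transporter, rose by 0.55 (SE 0.10, adjusted p = 2.65e-05), with 26.9% of its windows shared with Slc22a21. Crat, carnitine acetyltransferase, rose by 0.75, from 65.5 ± 1.07 to 110.4 ± 1.57 CPM, and the mitochondrial carrier gene Slc25a29 by 0.58. Aldh9a1, a dehydrogenase of carnitine synthesis, fell by 1.18, from 59.3 ± 3.23 to 26.1 ± 3.10 CPM. Crot, the peroxisomal octanoyltransferase, fell by 0.15 (adjusted p = 0.0298), a call lost in 5 of 13 alternatives (adjusted p 0.000120 to 0.127), among them those without myoblast library 2 (0.0813), myoblast library 3 (0.0635), myotube library 1 (0.0755) or myotube library 3 (0.0506). Tmlhe, the first enzyme of carnitine synthesis, had 0 counts in all libraries, but the GENCODE annotation used here gave no gene model for it, so the 0 is not read as absence. Bbox1, the last enzyme, had 2 counts; both were named after their values were seen.

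Malonyl-CoA inhibits carnitine palmitoyltransferase 1, and AMP-activated protein kinase lowers its synthesis. All 11 genes of this control were tested, and 6 rose and 4 fell; with library totals 5 rose and 5 fell. The kinase subunits moved in both directions. Prkag3, the regulatory subunit of fast muscle, rose from a trace, 1.10 ± 0.248 CPM, to 160 ± 3.20 CPM (edgeR log2 change 7.18, SE 0.10, adjusted p = 2.28e-27). It too passed the filter through the myotubes alone. With 37 counts in the myoblast group the SE is too small: the scaled count ratio was 147, with an exact 95% counting interval of 107 to 210. Prkaa2, the catalytic subunit prominent in muscle, rose by 4.15, from 2.86 ± 0.546 to 51.1 ± 5.06 CPM, while the widespread catalytic subunit gene Prkaa1 fell by 0.58 and the regulatory subunit gene Prkag2 by 1.16. Enzymes of opposite action on malonyl-CoA both rose: Acacb, which makes it at the mitochondrion, from 1.41 ± 0.221 to 9.16 ± 1.59 CPM, and Mlycd, which breaks it down, from 7.98 ± 0.879 to 19.1 ± 1.53 CPM. Acaca, the cytosolic carboxylase, was not called in the edgeR fit with TMM scaling (log2 change −0.09, SE 0.06, adjusted p = 0.201), and 52.6% of its windows have a copy in Gm5182. The choice to name these 3 came after their values were seen.

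**Figure D5:**
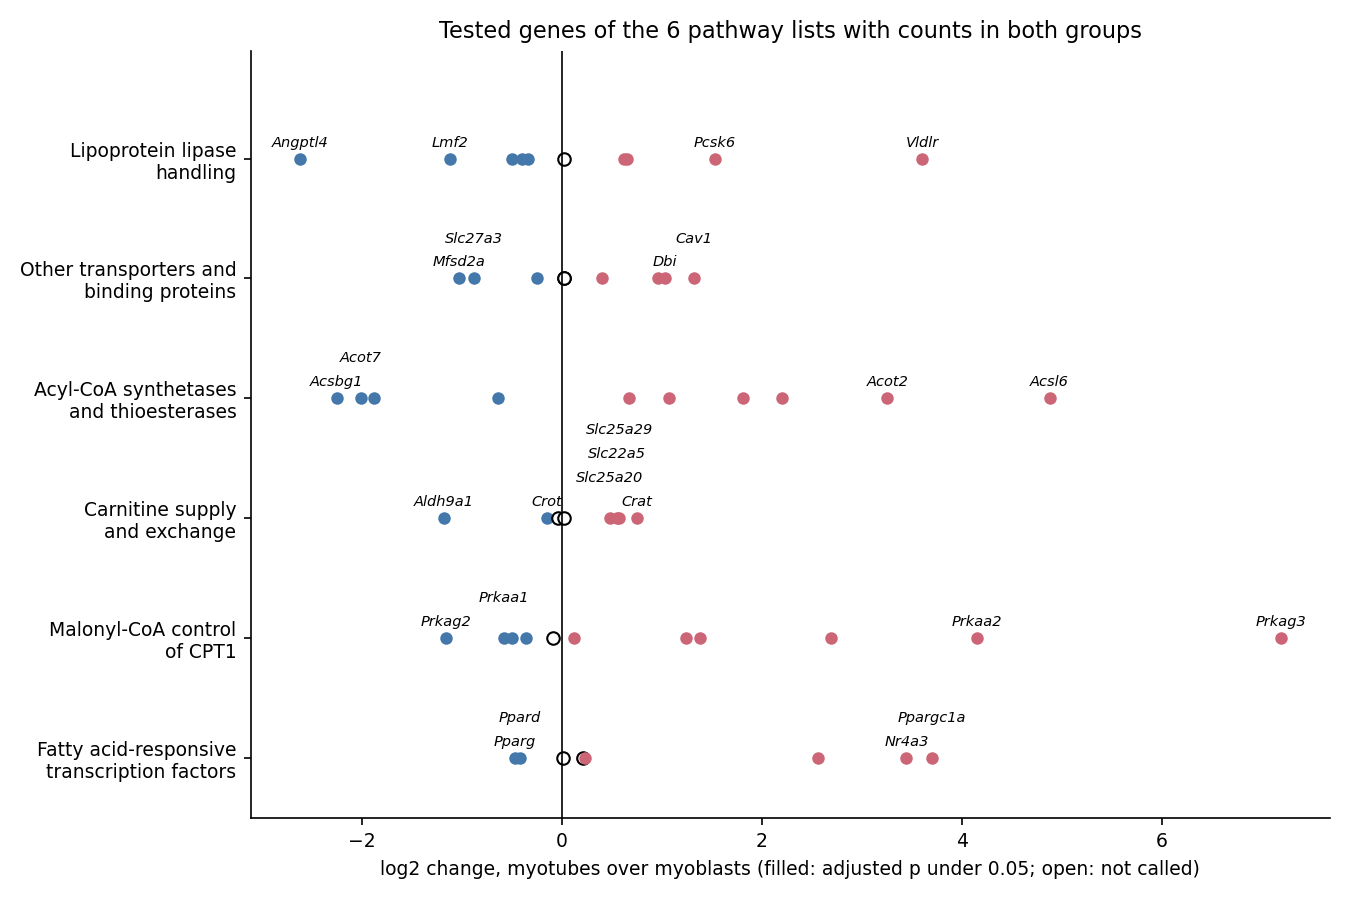
Log2 change of myotubes over myoblasts (x axis) for tested genes of the 6 pathway lists (rows) with counts in both groups; filled points passed an adjusted p of 0.05, red higher and blue lower in myotubes, open points did not pass. Every list holds genes on both sides of 0, from Angptl4 at −2.62 to Prkag3 at 7.18.

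Of 13 fatty acid-responsive transcription factors and their coactivators, 10 were tested, and 6 rose and 2 fell; with library totals 4 rose and 3 fell. Ppargc1a, a coactivator of mitochondrial and fatty acid genes, had 0.449, 0.163 and 0.471 CPM in the myoblast libraries and 5.00, 3.93 and 5.31 CPM in the myotube libraries (log2 change 3.70, SE 0.34, adjusted p = 2.58e-10). Nr4a3, an orphan nuclear receptor, rose by 3.44. Both passed the filter on low counts through the myotubes alone, as Klf15 below did, so a difference in this direction was largely set beforehand. With 12 myoblast counts of Ppargc1a and 8 of Nr4a3, the scaled count ratios were 13.5 (exact 95% counting interval 7.40 to 26.9) and 11.4 (5.45 to 27.7). Klf15, a factor of muscle lipid use named after its values were seen, had 0 counts in myoblasts and 34 in myotubes, at least 17.2-fold higher than 3 counts over the myoblast group would give. Pparg fell by 0.47, from 16.3 ± 0.629 to 11.8 ± 0.466 CPM, and Ppard, the receptor widespread in muscle, by 0.42, from 58.4 ± 1.67 to 43.9 ± 3.58 CPM. Ppara, also named after its values were seen, had 37 and 20 counts in the groups and was not tested. Over the 6 lists 58 of 82 genes were tested, and 30 rose and 20 fell, with a median log2 change of 0.21. With library totals 27 rose and 24 fell. Of all 12800 genes tested, 40.2% rose and 39.2% fell, with a median log2 change of 0.02. With library totals 4269 of them rose and 5935 fell. Whether the lists depart from these shares was not tested.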

How the data were processed

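Stranded poly(A) libraries were made from TRIzol RNA, per the labels' protocols. The authors deposited a table of raw counts by Entrez ID and symbol, 1 column for each of 6 libraries, matched to samples by name. Reads were processed with fastp, STAR, featureCounts and mm10, per the submitters' processing notes; the sources used here do not give the strand setting or the treatment of reads shared by genes. Groups follow the sample titles. The members and gene lists were chosen with earlier results of these data known.

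Counts were tested with edgeR 4.0.16 in R 4.3.3: filterByExpr (minimum count 10, total 15) kept 12800 genes holding at least 99.86% of each library, with TMM scaling, the robust quasi-likelihood F test and Benjamini-Hochberg adjustment at 0.05. The code was tested on simulated data. Each SE was taken as the log2 change without its sign over the root of the F statistic. The biological coefficient of variation was 3.56%. Levels per kilobase divide CPM by the longest GENCODE M21 coding transcript. Windows of 50 bases of that transcript were searched in all other genes on both strands. Of the 26 pathway genes named, Acsl6, Crat, Crot, Pcsk6 and Prkag2 share up to 5.54% of their transcript with another gene. Counting intervals and limits cover counting error only.

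Replicates differed by more than counting noise (chi-square per degree of freedom 1.35 to 3.22), so each library counted as 1 sample. Named genes were the members, Slc25a20 and Slc22a5, and in each list the called genes averaging 1 CPM or more whose log2 changes were the 2 highest or the 2 lowest. Any other pathway gene whose values are given was named after they were seen and is marked so, apart from Gpihbp1, a marker at 0. Of the marker genes, those at 0 in a group or highest in their list were named, and any other is marked as named after its values were seen. Ratios of 2 isoforms used an offset of 1 CPM. Alternatives were DESeq2 1.42.0 size factors and Wald test, library totals, limma-voom (limma 3.58.1), 2 other filters, the replicate number as a block and each library left out.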

Additional observations from a re-analysis of the deposited data

How the results depend on the processing

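Of 10170 genes called, the alternatives gave 9496 to 11105. The members called were 8, and 7 or 8 under the alternatives: Cd36, Fabp3, Cpt2, Cpt1a, Slc27a1 and Fabp5 held in all 13, Lpl was lost in 7 and Cpt1c in 1. Beside the settings given with its result, Lpl was lost with the DESeq2 Wald test (adjusted p = 0.0717) and when genes of low count stayed in the edgeR fit (adjusted p = 0.0681). No tested member, and no other gene named by the rule, changed sign in them. Library totals in place of TMM shifted the median log2 change of all genes by −0.15, from 0.02 to −0.13, and members shifted with it. The group differences of the 3 isoform ratios kept their sign with an offset of 0.25 CPM and without each library, but their size depended on the offset. With 0.25 CPM they were 7.20 for Fabp3 over Fabp5, 2.32 for Cpt1b over Cpt1a and 2.40 for Fabp4 over Fabp5. A design of 3 against 3 cannot pass 0.05, so the kept sign says nothing about their test. With the replicate number as a block 10161 genes and the same 8 members were called. Same-numbered libraries did not deviate together (correlations −0.00844, 0.00179 and −0.00386 for numbers 1, 2 and 3). Not every library correlated best with its own number. Deviations among replicates also hold counting noise, so these values cannot tell whether equal numbers mark a shared culture. Fabp4 and Cpt1b had too few counts for any fit that filters low counts (unfiltered, Cpt1b had a log2 change of 0.41 and adjusted p = 0.630).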

Other observations

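Ratios per kilobase of transcript between successive steps, chosen after the values were seen, describe how the chain was made up in each library. Cpt1a over Cpt2 was 1.86, 1.99 and 1.92 in the myoblast libraries and 0.365, 0.404 and 0.364 in the myotube libraries. The RNA level of Cpt1a thus lay above that of Cpt2 in every myoblast library and below it in every myotube library; Cpt1b and Cpt1c are not part of this ratio. The carrier Slc25a20 over Cpt2 had a mean of 0.818 ± 0.0753 in the myoblast libraries and 0.916 ± 0.0476 in the myotube libraries (SD, n = 3 each), values that overlap between the groups. Fabp3 over Cd36 was 1.09, 0.978 and 1.03 in the myotube libraries. Copies of Fabp3 windows in its pseudogene leave the myotube ratios uncertain. The myoblast ratios rest on 2 to 12 counts a gene and are not read.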
